A study of Drosophila montana and Drosophila virilis with 24 samples.

Results

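The response of Drosophila virilis to 6 days of cold acclimation was measured on 6 of the 24 arrays of a series on cold exposure in D. montana and D. virilis. The 6 arrays were chosen by their titles, 3 of flies acclimated at 5°C and 3 of flies kept at 19°C. All flies were females, collected whole at an age of 20 days in a daily cycle of 22 light and 2 dark hours, at 5 to 6 hours after lights on, and each array held the RNA of a separate pool of 10 flies. Control flies spent all 20 days at 19°C, and acclimated flies spent 14 days at 19°C and then 6 days at 5°C. Another group of 3 D. virilis arrays came from flies exposed to 0°C for 1 hour after 20 days at 19°C (cold hardening), and D. montana flies were acclimated by the same scheme. Strains are not given in the sources used here. Cold therefore replaced the last days of warm life in the acclimated flies, so that temperature and the days spent warm cannot be told apart.

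Cold acclimation is the slow gain of cold tolerance during days of mild chill, whereas rapid hardening takes place within an hour or less. In Drosophila the slow form is known to accompany changes in membrane lipids, in chaperones and in carbohydrate stores. D. virilis and D. montana belong to the same species group, and D. montana lives further north and enters an adult reproductive diapause. Gene roles given here are those known from D. melanogaster unless another species is named.

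The custom array carried 1850 probes for 218 candidate genes, all named for D. montana sequence, so that D. virilis RNA was read by probes designed on a related species. A value is the log2 intensity of a gene relative to the 75th percentile of its own array, averaged over the gene's probes, and changes are differences of such values between group means, with the standard error (SE) of the limma fit. Levels of different genes depend on their probes and are not compared with each other. Of the 218 genes, 211 passed the filter on dim probes, with a median of 4 probes each. Between 72.3% and 75.9% of the spots were well above background on the acclimation arrays and between 75.5% and 80.5% on the control arrays, and no spot was saturated. Acclimation replicate 2 was marked for evaluation by the scanner software because its detection limit was out of range. The part of these differences in the results was not tested.

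Acclimation changed 83 of the 211 genes at an adjusted p under 0.05 (limma, Benjamini-Hochberg), which is 39.3% of the genes tested. Of these, 31 were higher (14.7%) and 52 lower (24.6%) after acclimation, and the median change over all genes was -0.06. The counts given below for functional lists are to be read beside these shares. The falls were more numerous but smaller: 9 genes rose by more than 1 log2 unit and 5 fell by more than that. The largest rises were in CG6785, in the noncoding heat shock RNA hsr-omega and in b (black), the decarboxylase that makes beta-alanine. The largest falls were in Cyt-b5-r, a cytochrome b5-related protein of the desaturase family, in the fatty acid desaturase desat2 and in Eip71CD, a methionine sulfoxide reductase.

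The 3 acclimation arrays all lay on one side of the 3 control arrays in 82 of the 83 genes, tim being the exception. The same was true of 110 of all 211 genes (52.1%), 45 above (21.3%) and 65 below (30.8%). Each slide held 1 control, 1 hardening and 1 acclimation array. The change had the same sign on all 3 slides in each of the 83 genes, as it must in the 82 without overlap. Leaving out 1 of the 6 arrays at a time gave 58 to 95 calls, 58 without control replicate 3, and 54 of the 83 genes kept their call in all 6 fits. The split between rises and falls depended on the scaling: rises made up 37.3% of the calls here, 68.6% of 35 calls when arrays were scaled by their spike-in probes, and 62.5% of 16 calls with normexp background correction. Among the named genes, hsr-omega, b, stv, Hsp20, l(2)efl, Rh3, Rh4, CdsA and Mhc were called higher, and Cyt-b5-r, desat2, Eip71CD, amd and mnb lower, under both of these settings too. The flies were whole, so a change in a tissue-restricted gene can come from fewer or more cells of a type or from less or more RNA per cell, which cannot be told apart.

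**Figure D1:**
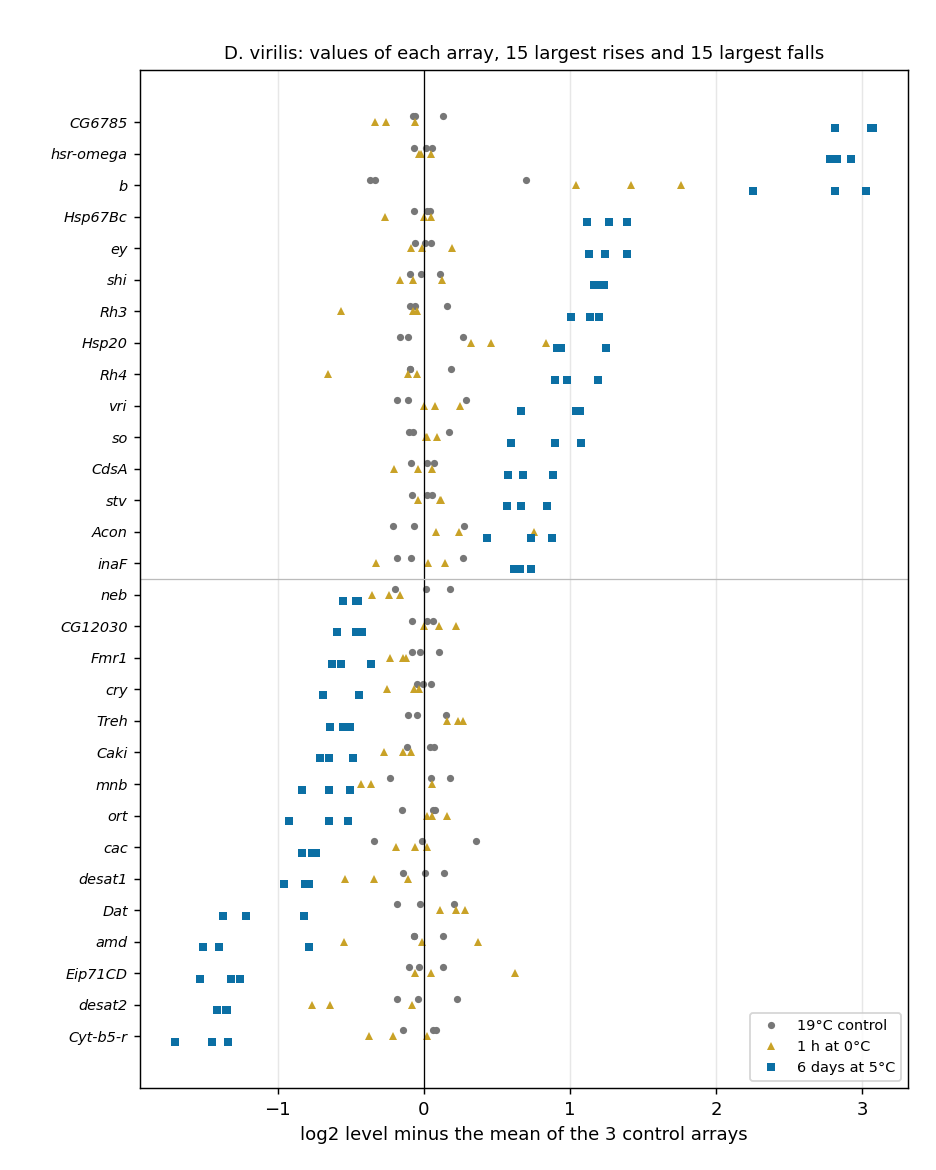
Each point is 1 D. virilis array, plotted as the log2 level of a gene minus the mean of its 3 control arrays, for the 15 largest rises (top) and the 15 largest falls (bottom). Squares (6 days at 5°C) stand clear of circles (19°C control) in every gene drawn, for which the genes were chosen. Triangles (1 h at 0°C) lie near the controls for most genes. They lie between the groups for b and Hsp20 and in part for desat2, and for Acon they reach from one group into the other.

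The inducible heat shock genes were led by hsr-omega, whose nuclear transcripts gather RNA-binding proteins into omega speckles. Which of its transcripts the probes read was not tested. Its level was 2.58, 2.70 and 2.66 on the control arrays and 5.57, 5.48 and 5.43 on the acclimation arrays (replicates 1 to 3). The groups lay far apart and each was tight. It rose by 2.85 ± 0.08 (SE, n = 3 per group), a 7.19-fold rise (adjusted p = 3.17e-10, limma), and its 3 probes gave 2.82 to 2.87. The Hsp40 gene DnaJ-1, a co-chaperone that hands clients to Hsp70, read 2.45, 2.50 and 2.51 in controls and 3.13, 3.04 and 3.07 after acclimation. Its groups did not overlap, and it rose by 0.60 ± 0.07 (adjusted p = 0.000124, limma).

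The co-chaperone gene stv (starvin), a BAG-domain partner of Hsp70, rose as well. It read -0.27, -0.41 and -0.31 in controls against 0.51, 0.24 and 0.33, a rise of 0.69 ± 0.09 (adjusted p = 0.000238, limma). In the same list the Hsp70-family gene Hsp68, which heat induces strongly, did not pass. Hsp68 read 1.87, 2.04 and 2.21 in controls and 2.14, 2.05 and 2.00 after acclimation, with overlapping groups and a difference of 0.03 ± 0.11 (adjusted p = 0.875, limma); its sign changed under several settings. The heat shock factor gene Hsf and the co-chaperone gene Hop did not pass either, so 3 of 6 measured members rose and none fell, with a median change of 0.31 beside -0.06 over all genes. With normexp, 2 of the 6 rose, and DnaJ-1 had an adjusted p of 0.06.

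Among the small heat shock proteins, which hold unfolded proteins in a refoldable state, 3 of 5 rose and none fell (median 0.53). Hsp20 read -0.04, -0.47 and -0.42 in controls and 0.94, 0.60 and 0.63 after acclimation, a 2.04-fold rise without overlap (1.03 ± 0.16, adjusted p = 0.000552, limma). The alpha-crystallin relative l(2)efl rose by 0.53 ± 0.13 (adjusted p = 0.00748, limma), with control arrays at 1.47, 1.22 and 1.22 and acclimation arrays at 2.07, 1.64 and 1.78. The other riser, Hsp67Bc, was the most uneven gene between its probes. Its mean moved from 1.83, 1.71 and 1.81 to 3.18, 2.90 and 3.05, a rise of 1.26 ± 0.10 (adjusted p = 6.55e-06, limma), but 1 of its 2 probes gave 2.62 ± 0.13 and the other -0.10 ± 0.10. With normexp Hsp67Bc had an adjusted p of 0.067. Hsp23 and Hsp26 did not pass.

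The constitutive chaperones, which fold proteins in unstressed cells, stayed mostly below the threshold. Of 10 genes 1 rose, 1 fell and 8 did not pass (median -0.06), where 14.7% of all genes rose and 24.6% fell. Hsc70-2, a cognate of Hsp70, rose from -1.44, -1.56 and -1.80 to -0.86, -1.13 and -1.01 without overlap, by 0.60 ± 0.11 (adjusted p = 0.00167, limma). Hsc70-3, the chaperone of the endoplasmic reticulum known as BiP, fell by 0.29 ± 0.09 (adjusted p = 0.0256, limma), from 3.79, 3.74 and 3.79 to 3.45, 3.36 and 3.65. The Hsc70-3 call was lost without control replicate 2 or 3 or acclimation replicate 1 or 2, with an adjusted p of up to 0.081, and under spike-in scaling (0.38) and normexp (0.88). The Hsp90 gene Hsp83 read 4.32, 4.36 and 4.42 in controls and 4.38, 4.34 and 4.18 after acclimation, with overlapping groups (-0.07 ± 0.09, adjusted p = 0.594, limma). No constitutive chaperone was called with normexp.

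The fatty acid desaturases and their cytochrome b5 relatives fell: 6 of 8 were lower, none was higher, and the median change was -0.41. Desaturases put double bonds into fatty acyl chains, which serve membranes and, in flies, cuticular hydrocarbons. Cyt-b5-r read 4.83, 4.81 and 4.60 in controls and 3.3, 3.04 and 3.40 after acclimation. It fell 2.82-fold without overlap, by 1.50 ± 0.13 on the log2 scale (adjusted p = 6.55e-06, limma), and its 4 probes ranged from -1.53 to -1.43.

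The delta-9 desaturase relative desat2 fell from 4.66, 4.40 and 4.25 to 3.09, 3.02 and 3.09. The change was -1.37 ± 0.16, or 2.59-fold lower (adjusted p = 0.000124, limma), although its 3 probes differed in size, from -1.66 to -1.06. The main delta-9 desaturase gene, desat1, fell from 6.27, 6.14 and 5.99 to 5.35, 5.18 and 5.32, by 0.85 ± 0.12 (adjusted p = 0.000312, limma). Both genes kept their 2 groups apart. With normexp, 2 of the 8 fell and desat1 had an adjusted p of 0.17.

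The predicted desaturase genes fell by less. CG17928 fell by 0.46 ± 0.09 (adjusted p = 0.00225, limma), from -1.93, -2.07 and -1.97 to -2.36, -2.57 and -2.41. CG9747 fell by 0.36 ± 0.09 (adjusted p = 0.0124, limma), from 2.66, 2.66 and 2.86 to 2.52, 2.25 and 2.34. CG15531 fell by 0.32 ± 0.10 (adjusted p = 0.0329, limma), from 2.83, 2.51 and 2.69 to 2.41, 2.19 and 2.48. None of the 3 had overlapping groups, but their calls were less stable than those of desat1 and desat2. CG9747 lost its call without control replicate 3 (adjusted p = 0.054), CG15531 without control replicate 1 or 3 or acclimation replicate 1 or 2 (up to 0.11), and all 3 lost it under spike-in scaling, at 0.12 for CG17928, 0.27 for CG9747 and 0.33 for CG15531. The desaturase relatives CG9743 and CG8630 did not pass.

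Of the carbohydrate genes, 2 of 6 fell and none rose (median -0.15), where 24.6% of all genes fell and 14.7% rose. Treh, the trehalase that splits the blood sugar trehalose into glucose, fell from 1.04, 0.77 and 0.84 to 0.38, 0.24 and 0.33, by 0.57 ± 0.09 (adjusted p = 0.000613, limma). Pgm, the phosphoglucomutase that links glycogen and glycolysis, fell by 0.42 ± 0.09 (adjusted p = 0.00473, limma), from 3.61, 3.42 and 3.50 to 3.20, 3.05 and 3.01. Neither gene had overlapping groups. The 4 probes of Pgm ranged from -0.70 to 0.16, and the gene had an adjusted p of 0.18 under spike-in scaling. With normexp no gene of the list was called and the median was 0.08. The adjusted p was then 0.092 for Treh and 0.57 for Pgm (limma). The glycolytic genes Tpi, Gapdh1 and Gapdh2 lay within 0.02 of no change, and Adh at -0.29 did not pass.

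Other metabolic genes outside that list moved in both directions. CG12030, the UDP-galactose epimerase of galactose use, fell by 0.50 ± 0.09 (adjusted p = 0.00129, limma), from 3.03, 3.17 and 3.13 to 2.65, 2.51 and 2.69. Acon, the aconitase of the citric acid cycle, rose by 0.68 ± 0.19 (adjusted p = 0.0142, limma), from 0.15, -0.19 and -0.34 to 0.75, 0.31 and 0.61. CdsA, which makes the phospholipid precursor CDP-diacylglycerol, rose by 0.71 ± 0.10 (adjusted p = 0.000382, limma), from 0.19, 0.30 and 0.35 to 0.86, 1.16 and 0.96. The groups of all 3 genes stood apart. Acon lost its call without control replicate 3 or acclimation replicate 1 (adjusted p up to 0.064), and CG12030 under spike-in scaling (0.089).

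Eip71CD, which repairs oxidized methionine, was the only one of 3 redox genes to pass, beside Sod and Cat (median of the 3, -0.15). Its arrays read 0.47, 0.24 and 0.31 in controls and -1.19, -0.99 and -0.92 after acclimation. The fall of 1.37 ± 0.16 on the log2 scale was 2.58-fold (adjusted p = 0.000122, limma), and its 4 probes gave -1.46 to -1.25. It was called with normexp and with spike-in scaling as well.

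The single probe of CG6785 showed the largest change of all 211 genes. It read -5.05, -5.25 and -5.24 on the control arrays and -2.10, -2.36 and -2.11 on the acclimation arrays, with 3 of 3 arrays of each group well above background. The rise was 2.99 ± 0.11, or 7.92-fold (adjusted p = 3.21e-09, limma). With normexp it was 0.71 (adjusted p = 0.58).

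In the core loop of the clock, where Clk and cyc activate per, tim and vri, 2 of 6 genes rose and 1 fell (median 0.12). The repressor gene vri rose 1.90-fold, by 0.93 ± 0.15 (adjusted p = 0.000613, limma), from 0.43, 0.03 and -0.04 to 1.21, 0.80 and 1.18. The repressor gene per rose by 0.67 ± 0.10 (adjusted p = 0.000382, limma), from -3.01, -3.15 and -3.19 to -2.35, -2.58 and -2.41. Both had separate groups, but 3 of the 7 per probes gave -0.05 to -0.02. With normexp the change was -0.03 for per (adjusted p = 0.976) and 0.51 for vri (0.31).

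Its partner tim did not rise. It read -4.51, -4.62 and -4.78 in controls and -4.76, -5.02 and -5.03 after acclimation, with groups that overlapped narrowly, and it fell by 0.30 ± 0.11 (adjusted p = 0.0437, limma) over 14 probes from -0.51 to -0.01. The tim call was lost without control replicate 1 or 2 or acclimation replicate 2 or 3 (adjusted p up to 0.14), and 1 of its probes was not well above background on any acclimation array. The activator gene Clk read -3.91, -4.05 and -3.96 against -3.81, -3.83 and -3.75, a difference of 0.17 ± 0.08 that did not pass (adjusted p = 0.112, limma). With normexp no core clock gene was called. All flies were collected at one time of day, so a change of level and a shift of the daily rhythm cannot be told apart.

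Genes of light input and of clock protein turnover fell: 6 of 8 were lower and none higher (median -0.34). The blue-light photoreceptor gene cry fell most, by 0.52 ± 0.09 (adjusted p = 0.00152, limma), from 0.09, 0.14 and 0.05 to -0.34, -0.59 and -0.35. The F-box gene slmb, which marks PER for destruction, fell by 0.37 ± 0.08 (adjusted p = 0.00324, limma), from 2.02, 2.05 and 2.18 to 1.70, 1.77 and 1.68. The RNA-binding gene lark fell by 0.35 ± 0.08 (adjusted p = 0.00439, limma), from 1.73, 1.69 and 1.85 to 1.43, 1.41 and 1.39. The groups of all 3 stood apart, and the 7 probes of lark lay between -0.36 and -0.33.

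The other 3 that fell act on the phosphorylation of PER and TIM. The phosphatase subunit gene tws fell by 0.35 ± 0.08 (adjusted p = 0.00623, limma), the casein kinase gene dco (doubletime) by 0.32 ± 0.11 (adjusted p = 0.0329, limma) and the kinase gene sgg (shaggy) by 0.26 ± 0.08 (adjusted p = 0.0236, limma). Without single arrays, sgg lost its call in the fits without control replicate 2 or 3 or acclimation replicate 3 (adjusted p up to 0.10) and dco in those without control replicate 2 or 3 or acclimation replicate 1 or 3 (up to 0.14). All 6 falls were below 0.6 log2 units, and none of the 8 genes was called under spike-in scaling or with normexp, where the medians were -0.30 and -0.20. The genes jet and CkIIalpha did not pass.

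The catecholamine and beta-alanine genes, which serve cuticle tanning and dopamine, moved in opposite directions: 2 of 7 rose and 2 fell (median 0.18). The gene b read -1.65, -2.69 and -2.72 in controls and 0.67, -0.10 and 0.47 after acclimation. Control replicate 1 stood above the other controls, but the groups stayed clear of each other. The rise was 2.70 ± 0.30, or 6.5-fold (adjusted p = 7.34e-05, limma), its 7 probes gave 2.65 to 2.74, and leaving out single arrays gave 2.52 to 3.05.

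The falls were in genes that act on dopa and dopamine. The gene amd, a relative of dopa decarboxylase needed for cuticle, fell from -0.72, -0.52 and -0.72 to -1.44, -2.16 and -2.06, 2.35-fold, by 1.23 ± 0.23 on the log2 scale (adjusted p = 0.00167, limma). Dat, the N-acetyltransferase that inactivates dopamine and other arylalkylamines, fell from -1.17, -1.40 and -1.56 to -2.20, -2.75 and -2.59, by 1.14 ± 0.14 (adjusted p = 0.000158, limma). Neither gene had overlapping groups, but 1 of the 3 Dat probes was not well above background on any acclimation array, so that its change of -1.68 includes a reading at background, and Dat had an adjusted p of 0.12 with normexp.

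Dopa decarboxylase itself, Ddc, rose by 0.28 ± 0.09 (adjusted p = 0.0305, limma), from -0.17, -0.21 and -0.21 to 0.17, -0.01 and 0.07. The Ddc groups did not overlap, but the call was lost without control replicate 2 or 3 or acclimation replicate 1 or 3 (adjusted p up to 0.097) and under spike-in scaling (0.28). The tyrosine hydroxylase gene ple, the beta-alanyl-dopamine synthase gene e (ebony) and y (yellow) did not pass.

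Of the vision genes, 2 of 16 were higher, 2 lower and 12 did not pass (median 0.10), where 14.7% of all genes rose and 24.6% fell. The risers were the 2 ultraviolet opsins of the R7 photoreceptors. Rh3 read -0.71, -0.45 and -0.67 in controls and 0.59, 0.40 and 0.53 after acclimation, 2.16-fold higher (1.11 ± 0.14, adjusted p = 0.000147, limma). Rh4, read by 1 probe, moved from -0.36, -0.08 and -0.36 to 0.92, 0.63 and 0.71, a rise of 1.02 ± 0.16 (adjusted p = 0.000565, limma). The groups of both opsins stood apart, and both were called with normexp and with spike-in scaling.

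The outer-photoreceptor opsin ninaE, the arrestins, norpA, inaD, trp and trpl did not pass, and the R8 opsin Rh6 had the largest change among genes not called (0.64 ± 0.30). Over 11 photoreceptor markers, all measured, 2 were higher and none lower, and the log2 of their summed linear level was 6.74 to 7.02 in controls and 7.05 to 7.26 after acclimation. Its part in the change of Rh3 and Rh4 was not tested. The histamine-gated chloride channel ort, which receives the photoreceptor signal in the lamina, fell by 0.70 ± 0.11 (adjusted p = 0.00068, limma), from -4.73, -4.52 and -4.50 to -5.10, -5.23 and -5.51; 2 of its 4 probes were well above background on 1 of 3 acclimation arrays. The phosphatidylinositol transfer gene rdgB fell by 0.30 ± 0.09 (adjusted p = 0.0288, limma), a call lost without control replicate 2 or acclimation replicate 2 or 3 (adjusted p up to 0.089). The gene inaF, needed for TRP channel function, was not in the list and rose by 0.67 ± 0.14 (adjusted p = 0.00336, limma), from -2.15, -1.79 and -2.24 to -1.40, -1.32 and -1.44 without overlap; with normexp it was 0.18 (adjusted p = 0.73).

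All 3 eye transcription factors passed, 2 upward. The Pax6 gene ey (eyeless) read -4.23, -4.33 and -4.27 in controls and -2.89, -3.15 and -3.03 after acclimation, a 2.38-fold rise (1.25 ± 0.10, adjusted p = 5.08e-06, limma). The homeobox gene so (sine oculis) rose by 0.86 ± 0.12 (adjusted p = 0.000382, limma), from -3.06, -3.33 and -3.3 to -2.15, -2.64 and -2.33. Both had separate groups, but both are dim on the array: with normexp the change of ey was -0.03 and that of so 0.04. The zinc finger gene gl (glass) fell by 0.47 ± 0.14 on 1 probe (adjusted p = 0.0235, limma), from -3.84, -3.35 and -3.66 to -4.08, -4.20 and -3.98. Only 1 of the 3 probe pairs of gl passed the filter on dim probes. The gl call was lost without control replicate 2 or 3 or acclimation replicate 1 or 2 (adjusted p up to 0.081). It was also lost under spike-in scaling (0.11), with normexp (0.54), with every dim probe kept and with both orientations. No eye transcription factor was called with normexp.

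Of the 6 genes listed for membrane excitability, 3 were lower and none higher (median -0.18), and none was called with normexp. The calcium channel gene cac fell by 0.78 ± 0.15 (adjusted p = 0.00179, limma), from -5.30, -4.60 and -4.97 to -5.79, -5.69 and -5.72, and 1 of its 2 probes was well above background on 1 of 3 acclimation arrays. Only 2 of the 6 probe pairs of cac passed the filter on dim probes. With every dim probe kept, the change of cac was 0.08, and with both orientations its call was lost. The sodium channel subunit gene tipE fell by 0.39 ± 0.08 (adjusted p = 0.00229, limma), from 0.70, 0.67 and 0.76 to 0.33, 0.40 and 0.23. The third, nonA, encodes an RNA-binding protein that shapes courtship song and is no channel, and it fell by 0.35 ± 0.09 (adjusted p = 0.0083, limma). The groups of cac and tipE did not overlap; tipE (adjusted p = 0.22) and nonA (0.27) lost their calls under spike-in scaling.

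The synapse list held opposite changes in 2 of its 3 genes. The dynamin gene shi (shibire), which pinches off vesicles during endocytosis, rose from -2.18, -1.98 and -2.10 to -0.88, -0.86 and -0.92, 2.30-fold, by 1.2 ± 0.09 (adjusted p = 5.08e-06, limma). Its 4 probes gave 1.14 to 1.26, its groups stood far apart, and the change was 0.61 with normexp (adjusted p = 0.37). The scaffold gene Caki, the fly CASK, fell by 0.62 ± 0.09 (adjusted p = 0.000531, limma), from -1.48, -1.33 and -1.30 to -2.02, -1.85 and -2.08. The third, Syt1, did not pass.

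Among kinases and signalling genes of neurons, 1 of 8 rose and 2 fell (median -0.13), near the shares over all genes (14.7% higher, 24.6% lower). The kinase gene mnb (minibrain) fell by 0.66 ± 0.15 (adjusted p = 0.00503, limma), from -0.46, -0.18 and -0.06 to -0.88, -0.74 and -1.07 without overlap. CaMKII fell by 0.37 ± 0.09 (adjusted p = 0.0069, limma), from 1.05, 0.98 and 1.05 to 0.68, 0.60 and 0.69, and lost its call under spike-in scaling (0.26). The serotonin receptor gene 5-HT7 rose by 0.56 ± 0.10 (adjusted p = 0.00119, limma), from -5.53, -5.65 and -5.69 to -4.96, -5.15 and -5.09. However, 3 of its 6 probes were not well above background on all 3 control arrays. The 5-HT7 call was lost when only probes above background on all arrays were kept, and with normexp its change was -0.62. Further regulators outside the lists fell without overlap. Fmr1, a repressor of translation, fell by 0.52 ± 0.09 (adjusted p = 0.00134, limma), from -0.94, -0.89 and -0.76 to -1.49, -1.22 and -1.43, and neb fell by 0.49 ± 0.10 (adjusted p = 0.00326, limma), from -1.21, -1.0 and -0.84 to -1.47, -1.48 and -1.57. Under spike-in scaling their adjusted p-values were 0.066 and 0.094.

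The insulin and diapause genes showed small rises in 2 of 5 and no falls (median 0.27), where 14.7% of all genes rose and 24.6% fell. The RNA-binding gene cpo (couch potato), linked to reproductive diapause in D. melanogaster, read -1.95, -1.98 and -2.02 in controls and -1.56, -1.90 and -1.64 after acclimation, a rise of 0.28 ± 0.09 (adjusted p = 0.0329, limma) without overlap. It lost its call without control replicate 2 or 3 or acclimation replicate 1 or 3 (adjusted p up to 0.11). The insulin-like peptide gene Ilp7 rose by 0.27 ± 0.10 (adjusted p = 0.0484, limma), from -5.86, -5.71 and -5.95 to -5.50, -5.59 and -5.63, and lost its call in every fit without 1 array except that without control replicate 2 (adjusted p up to 0.17). With normexp the changes of cpo and Ilp7 were -0.09 and -0.72. The insulin receptor gene InR, Thor and Pi3K92E did not pass.

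Of 5 courtship and sex determination genes, sbb (scribbler) alone fell, by 0.48 ± 0.10 (adjusted p = 0.00364, limma; median of the list -0.18), with an adjusted p of 0.11 under spike-in scaling. Of 5 stress kinase and immunity genes, the adaptor gene imd alone fell, by 0.35 ± 0.09 (adjusted p = 0.0137, limma; median -0.07), and it lost its call without control replicate 3 or acclimation replicate 3 (up to 0.059). Both counts stand beside the 24.6% of all genes that fell. The muscle myosin gene Mhc rose by 0.57 ± 0.12 (adjusted p = 0.00308, limma), from 6.10, 5.93 and 5.76 to 6.67, 6.34 and 6.49 without overlap. The cytoplasmic actin gene Act42A fell by 0.35 ± 0.10 (adjusted p = 0.0166, limma).

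Act42A lost its call without control replicate 3 or acclimation replicate 2 or 3 (adjusted p up to 0.057). The muscle titin gene sls, a member of the same list of 3 (median 0.30), did not pass (0.30 ± 0.13, adjusted p = 0.0764, limma). None of 3 translation and reference genes passed (median 0.23). The nearest was the ubiquitin gene Ubi-p63E, at 8.11, 8.13 and 8.0 in controls and 8.31, 8.31 and 8.30 after acclimation (0.23 ± 0.08, adjusted p = 0.0532, limma). Of 5 cold candidates that include hsr-omega, stv and desat1, the other two did not pass: Dca, and Fst (Frost), which is induced during recovery from cold and read 0.77, 0.04 and 0.53 in controls against 0.92, 0.76 and 0.58 (0.31 ± 0.17, adjusted p = 0.168, limma). No marker gene of oogenesis, yolk or the male tract was measured, so the reproductive state of the pools was not analysed here.

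**Figure D2:**
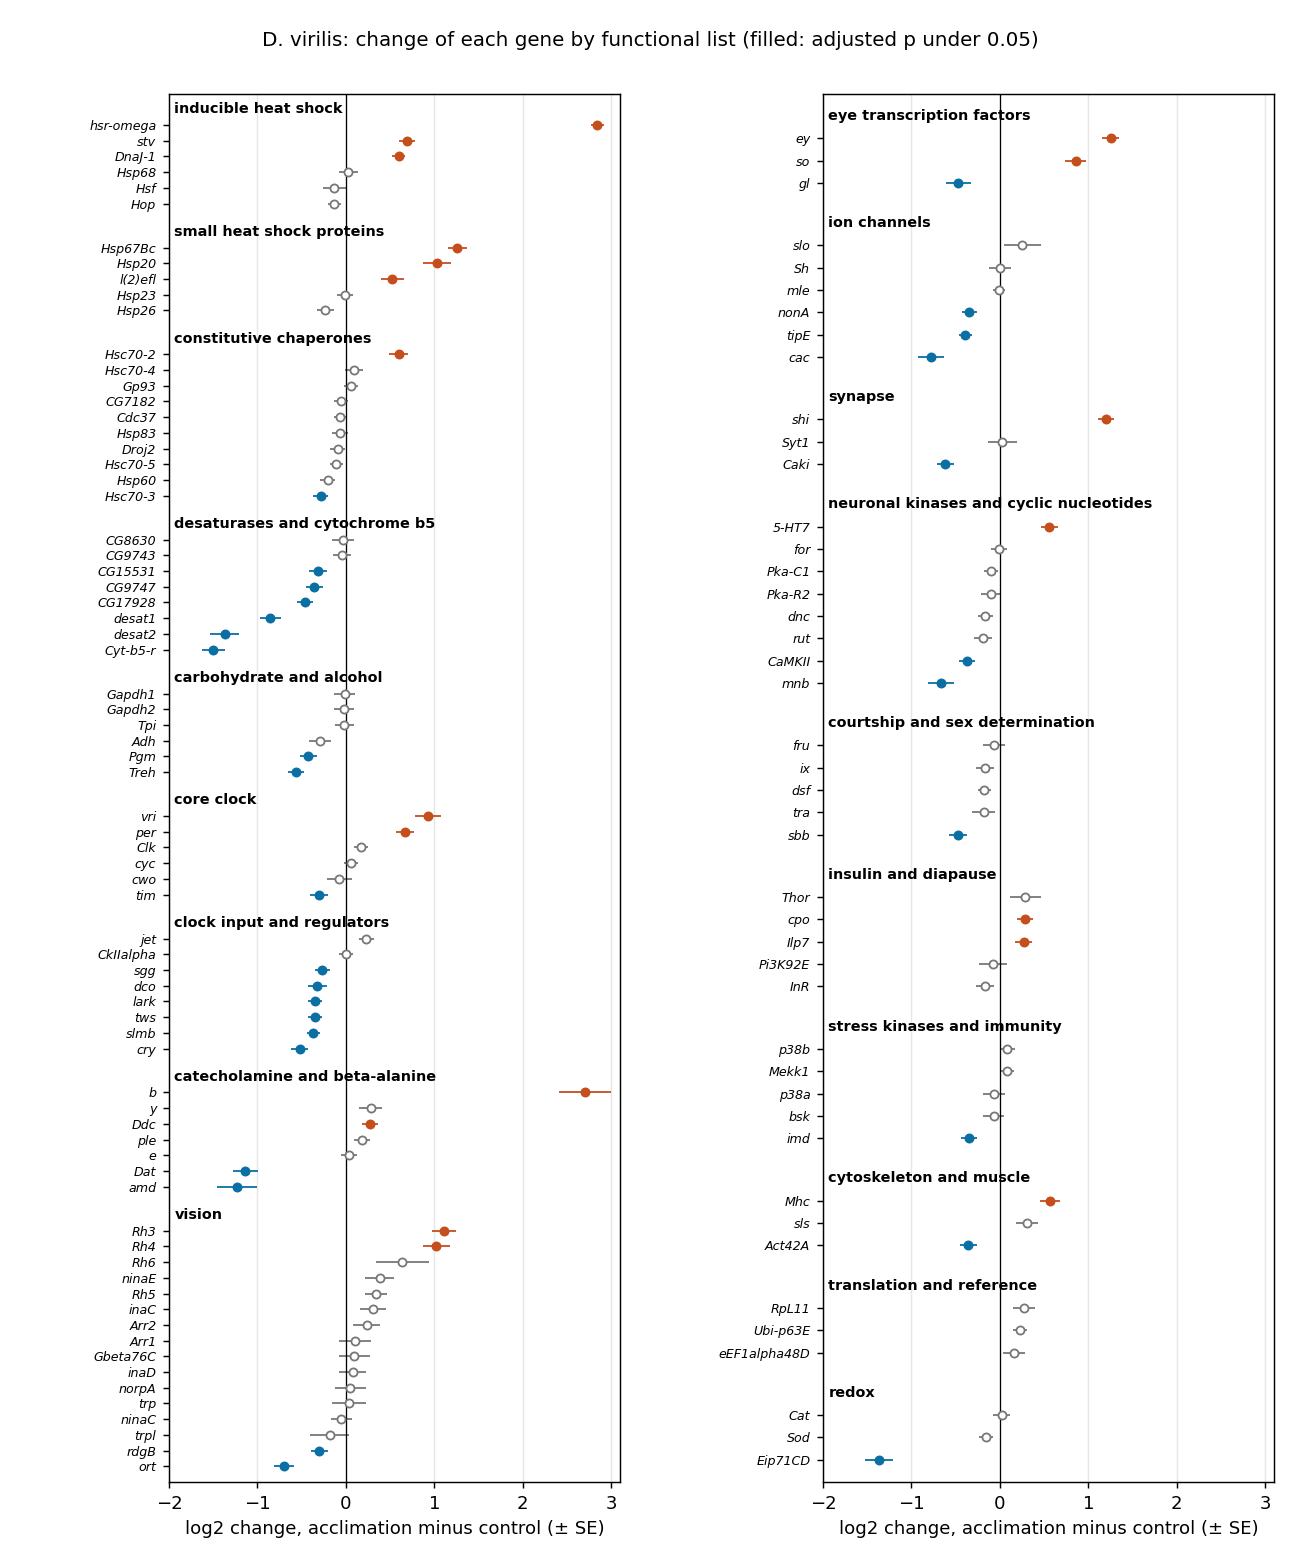
The log2 change of each gene (acclimation minus control, ± SE, 3 arrays per group) is drawn by functional list, with filled circles for genes at an adjusted p under 0.05, red where higher and blue where lower. Of the 8 desaturase genes, 6 are filled and lie to the left of 0, and CG9743 (-0.05) and CG8630 (-0.03) are unfilled and near 0. The 6 filled clock input genes lie to the left with jet (0.23) and CkIIalpha (at 0) unfilled, and the filled heat shock genes lie to the right.

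Single probes gave a similar share of calls: 311 of 842 (36.9%), with 113 higher (13.4%) and 198 lower (23.5%). No gene had probes called in both directions. Of 76 called genes with at least 2 probes, 67 had all probes changed in one direction and 53 had every probe called. Among the 128 genes not called, 25 had at least 1 called probe.

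The probes of per divided by fragment. Its 3 probes of fragment 2 and its probe of fragment 4 rose by 1.14 to 1.25, each with an adjusted p under the threshold (limma, over probes), while the 3 probes of fragment 3 gave -0.05 to -0.02. At fragment 3 the opposite orientations, which were dimmer by 0.44 to 1.79, rose by 0.49 to 1.12. Most pairs on the array differed far more in brightness, with a median gap of 4.65 log2 units. Which orientation reads the messenger was not tested for fragment 3.

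In Hop, the Hsp70 and Hsp90 organizing protein, 1 of 8 probes fell by 1.77 ± 0.17 and the other 7 lay between 0.07 and 0.17. That probe had the orientation opposite to the others of the gene, and with one orientation taken for each fragment the change of Hop was 0.11 in place of -0.13. In sls, 1 probe rose by 1.63 ± 0.30 and the other 6 lay between -0.11 and 0.42. The serotonin transporter gene SerT rose by 0.49 ± 0.08 (adjusted p = 0.00115, limma), from -4.96, -4.92 and -5.16 to -4.47, -4.55 and -4.55, and its 5 probes ranged from -0.04 to 1.34. With normexp SerT changed by -0.52. In cpo 8 of 13 probes rose, and the others ran from -0.36 to 0.27.

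**Figure D3:**
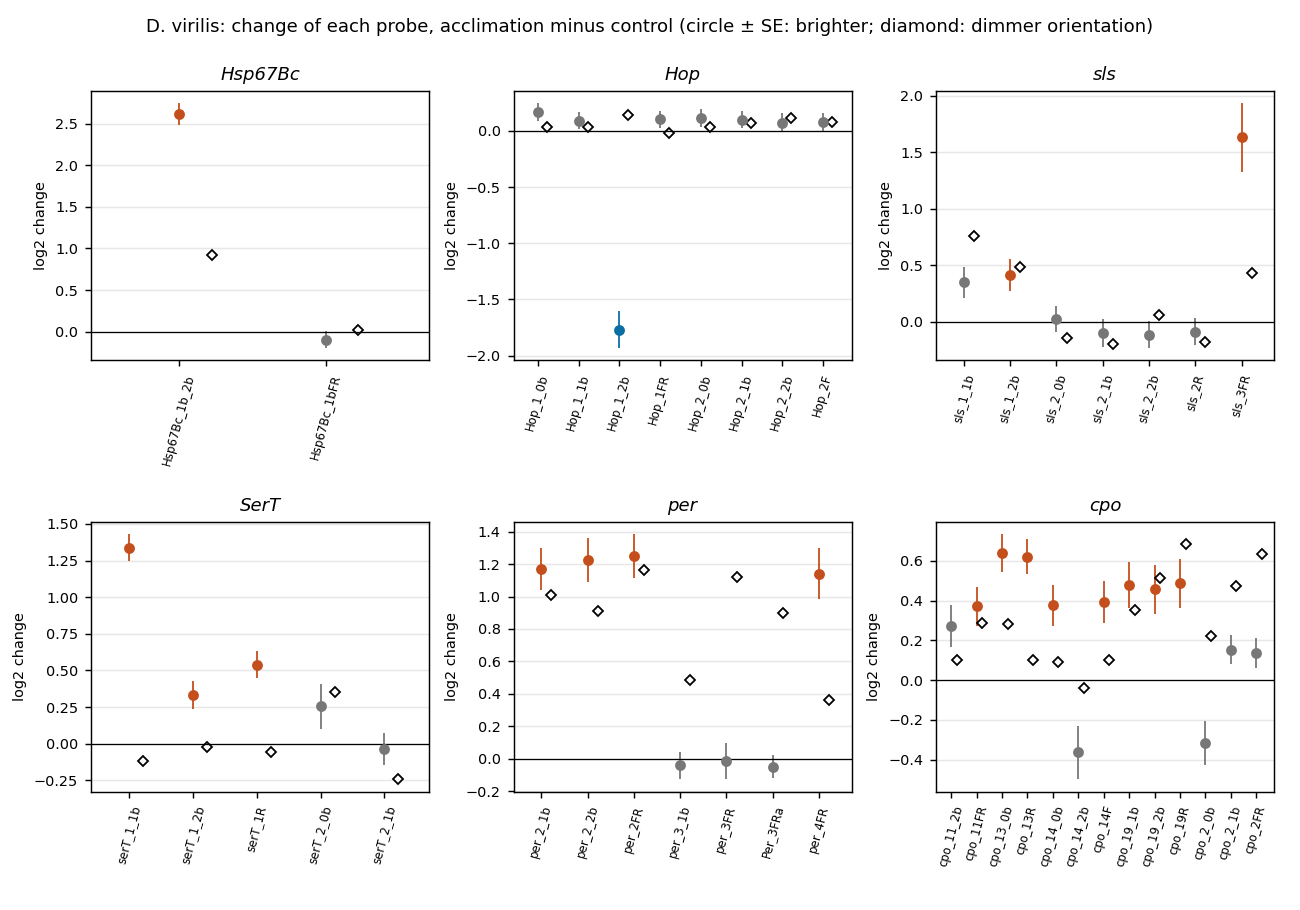
Each circle is the log2 change of 1 probe (acclimation minus control, ± SE) for the 6 genes with the widest range between probes, red where higher, blue where lower and grey where not called; diamonds give the opposite, dimmer orientation of the same probe. The 3 grey circles of per fragment 3 lie at 0 with their diamonds above, and 1 probe each of Hop, sls and Hsp67Bc stands far from the rest of its gene.

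The 6 days at 5°C and the 1 hour at 0°C were compared directly. After 1 hour at 0°C only ninaD passed against the same controls (0.474% of genes, limma), with 22 genes at an unadjusted p under 0.05. Between acclimation and hardening 71 of 211 genes differed (33.6%), 40 higher (19.0%) and 31 lower (14.7%) in acclimated flies. Of the 83 genes that acclimation changed, 56 also differed from the hardening arrays in the same direction, 27 did not pass and none passed in the opposite direction; these comparisons share the acclimation arrays. In 69 of the 83 the acclimation arrays stood apart from all 6 other D. virilis arrays. In 82 of the 83 the acclimation arrays already stood apart from the control arrays, so the count of 69 partly repeats the call. The matching count over all 211 genes was not made, so no share can be set beside it.

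For most of the largest changes the hardening arrays read close to the controls. The level of hsr-omega after hardening was 2.70, 2.61 and 2.63, and acclimation exceeded it by 2.85. Hardened flies read higher than controls for b, at -1.31, -0.94 and -0.59, a difference of 1.41 that did not pass (adjusted p = 0.0698, limma). Acclimated flies exceeded them by 1.29 (adjusted p = 0.0067, limma). Hsp20 read 0.15, 0.01 and 0.53 after hardening, a difference from controls of 0.54 (adjusted p = 0.24, limma), and acclimation exceeded it by 0.49 (adjusted p = 0.0334, limma). Acon, Ddc, mnb, neb and imd were among the 27 that acclimation changed against controls and that did not pass against hardening.

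The change in D. virilis differed from that in D. montana in 26 of 209 genes measured in both (12.4%, limma interaction over 24 arrays), and 15 of the 26 were among the 83. Of these 15, 11 had the larger absolute change in D. virilis. The 15 were picked by a call in D. virilis, which favours larger changes there. The other 11 of the 26 were not called in D. virilis, so the count does not show which species responded more. The probes carry D. montana sequence and can match the species unequally, which can dampen a change in either. The difference rested on the arrays used: 15 genes differed without D. montana control replicate 2, 4 under spike-in scaling and none with normexp (17 at an unadjusted p under 0.05).

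Among these 15, the widest differences were in CG6785, amd and Pgm. CG6785 changed by 2.99 in D. virilis and 0.54 in D. montana (adjusted p of the difference 1.8e-07, limma). The gene amd fell by 1.23 in D. virilis while its change in D. montana was 0.91 (adjusted p = 0.0016, limma). Pgm changed by -0.42 in D. virilis and -1.70 in D. montana (adjusted p = 2e-06, limma). Beyond these 3, hsr-omega, Hsp67Bc, DnaJ-1, shi, Rh3, Rh4, Cyt-b5-r, Dat and qtc (outside the rule for named genes) had the larger absolute change in D. virilis, and desat1 and CG12030 in D. montana. Ddc changed by 0.28 in D. virilis and -0.77 in D. montana. The genes ey, vri, so, per, stv, desat2, Eip71CD and b did not pass the test of a difference between the species.

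**Figure D4:**
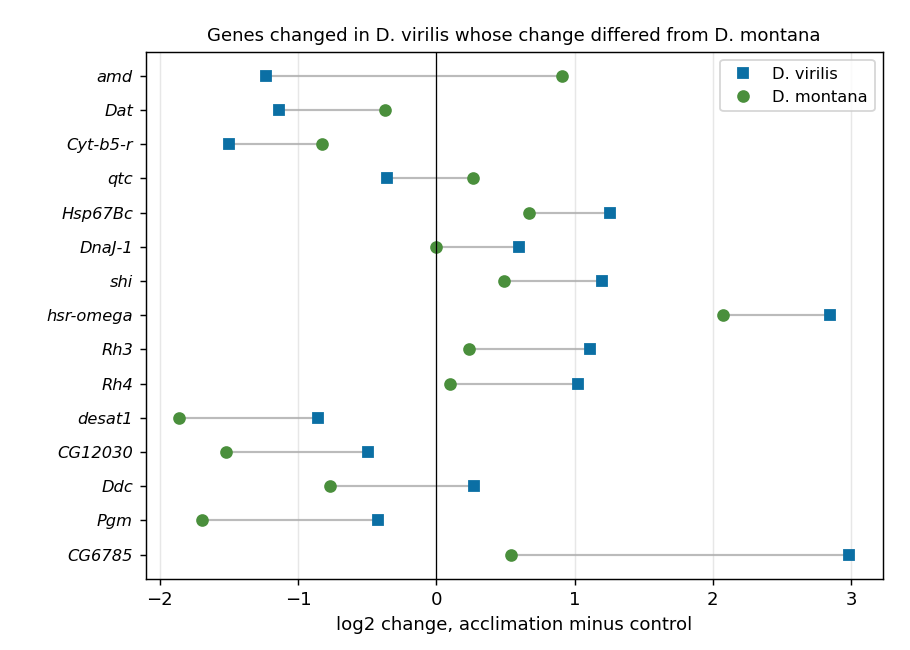
The log2 change (acclimation minus control) is drawn in D. virilis (squares) and D. montana (circles) for the 15 genes changed in D. virilis whose change differed between the species. The symbols of amd lie on opposite sides of 0, at -1.23 and 0.91, and those of CG6785 are 2.45 apart.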

How the data were processed

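Total RNA (600 ng per pool of 10 females) was labelled with Cy3 and hybridised to 1-colour arrays, per the labels' protocols. The authors deposited spot intensity values, background-subtracted within arrays, which the file headers credit to version 10.7.1.1 of Agilent Feature Extraction. A second deposited table holds intensity values already processed by the authors in a way no source used here describes, and served as an alternative. The submitters' processing notes list limma.

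Each probe had 8 spots, and unflagged spots were averaged on the log2 scale. The 75th percentile of each array was subtracted, 692 to 883 intensity units on the D. virilis arrays. The number of arrays limits the precision. The 1850 probes form 925 pairs of both orientations, and the brighter of each pair over all 24 arrays was used, a choice made after the files were seen. A probe was kept if, in at least 1 D. virilis group, more than 0.5 of its spots exceeded background clearly on each of the 3 arrays, and kept probes were averaged by gene. Of 218 gene names, 167 matched symbols of D. montana assembly ASM3504440v1, used for names only.

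Models were fitted in R 4.3.3 with limma 3.58.1 (lmFit, eBayes) on 9 D. virilis arrays, or all 24 for the difference between species, with Benjamini-Hochberg adjustment over all genes or probes and a threshold of 0.05. Figures and tables used Python 3.11.15, pandas 2.3.3 and matplotlib 3.10.9. The fit was tested on simulated data. Replicates are separate pools, per the labels.

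Alternatives were spike-in scaling, quantile normalization, normexp (offset 50, on median signals, since the files hold no mean signal), other probe filters and summaries, array weights, slide as block, the deposited table and leaving out arrays. One orientation per fragment, and the replicate number as block for the species difference, were chosen after seeing the data. The arrays, genes and lists were chosen with earlier results of these data known. Named genes were the 15 largest rises and falls among called genes without overlap, called members of each list, the member of smallest p where a list had none, 9 fixed genes where measured (Hsp70 and Yp1 were not), and the 6 genes with the widest range between probes.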

Additional observations from a re-analysis of the deposited data

Results flagged for a closer look

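The acclimation change differed between the species in 26 of all 209 genes measured in both (12.4%, limma interaction). Under spike-in scaling 4 genes differed, and with normexp none did. The 26 include 16 of the named genes, given here as D. montana minus D. virilis on the log2 scale. Most named genes were picked by a call in D. virilis, which favours larger changes there, so their count is no measure of how often the species differ. The difference was -2.45 for CG6785, -1.27 for Pgm, -1.02 for CG12030, -1.04 for Ddc and -1.01 for desat1. It was -0.928 for Rh4, -0.877 for Rh3, -0.774 for hsr-omega, -0.707 for shi, -0.60 for DnaJ-1 and -0.588 for Hsp67Bc. It was 2.14 for amd, 1.13 for Hsp68, 0.768 for Dat, 0.669 for Cyt-b5-r and 0.566 for Hop. Hsp68 did not pass in D. virilis (0.03) and changed by 1.16 in D. montana. Hop did not pass in D. virilis either (-0.13), where 1 of its 8 probes fell apart from the rest, and changed by 0.44 in D. montana.

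Probes of the dimmer orientation, which no gene value uses, also carried changes between the groups. Of 568 such probes above background, 124 passed in acclimation against control (limma), 43 higher and 81 lower. In 73 of the 124 the brighter probe of the pair was called too, 70 in the same direction and 3 in the opposite one, in Dat, CG9747 and Dca.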

How the results depend on the processing

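Acclimation against control gave 83 gene calls, and 75 to 109 under quantile normalization, other filters and summaries, both orientations, the deposited table, array weights, a fit on 6 arrays and one orientation per fragment. Spike-in scaling gave 35 and normexp 16, where the median SE of a gene was 0.193 and 0.198 in place of 0.101. Leaving out single arrays gave 58 to 95. Probe calls (311) numbered 140 under spike-in scaling, 54 with normexp and 203 to 317 without single arrays, 203 without control replicate 3. Acclimation against hardening (71) gave 39 and 9 under those 2 settings and 51 to 65 without single arrays. The species difference (26) gave 4 under spike-in scaling, 0 with normexp, 17 with both orientations, 56 with array weights, and 15 to 29 without single arrays. The causes were not tested.

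Among the named genes, the sign turned with normexp for ey (-0.0267), per (-0.0299), 5-HT7 (-0.62), Ilp7 (-0.72), cpo (-0.088), Clk (-0.53), sls (-0.13), SerT (-0.52), Hsp83 (0.17) and Hop (0.0378). It also turned for cac with no filter (0.0804), Hsp83 with both orientations (0.0176), sls with the median over probes (-0.11) and Hop with one orientation per fragment (0.11). Hsp68 turned with the median over probes (-0.0172), with array weights (-0.0253), and without control replicate 1 (-0.0599) or acclimation replicate 1 (-0.0119). List medians that changed sign with normexp were those for carbohydrate, catecholamine, constitutive chaperone, core clock, cytoskeleton, eye, insulin, redox and synapse genes.

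With the slide, which equals the replicate number in D. virilis, as a replicate block, 91 genes were called, 82 of them shared. Deviations of same-numbered control and acclimation arrays correlated at 0.423, -0.0149 and -0.258, and those of differently numbered arrays at -0.481 to 0.601. With 3 arrays per group, these values cannot decide whether the numbers pair the samples. The block gave 316 probes, 73 genes against hardening and, for the species difference, 29, or 30 with the labels' replicate numbers.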

Other observations

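Among the 93 measured genes in none of the lists, 11 rose and 21 fell, with a median change of -0.08. The transcription factor gene ken rose by 0.62, and was called in each fit without 1 array, under spike-in scaling and with normexp. The kinase gene Btk29A fell by 0.45, the synaptic scaffold gene homer by 0.47 and tilB by 0.42 (each at an adjusted p under the threshold, limma). These 3 kept their call in each fit without 1 array and lost it under spike-in scaling, at adjusted p-values of 0.14 for Btk29A, 0.11 for homer and 0.19 for tilB. With normexp Btk29A (0.31) and tilB (0.23) lost it as well. The 4 genes fall outside the rule for named genes and were chosen after their values were seen.

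In 51 probe pairs only the dimmer orientation passed. The largest such changes were in P5cr, pyrroline-5-carboxylate reductase, the last enzyme of proline synthesis. One dimmer probe read 1.16, 1.11 and 0.88 on the control arrays and -1.0, -1.58 and -1.98 on the acclimation arrays, a change of -2.57 ± 0.38, and another fragment's dimmer probe changed by -2.31 ± 0.35 (both at an adjusted p of 0.000543, limma). The brighter probes of these pairs changed by 0.21 and -0.01 and did not pass. The groups of the first probe did not overlap. In 8 pairs of Dca the dimmer probes fell, by 0.32 to 0.57, while the brighter probes of those pairs read 0.27 to 0.38 higher after acclimation, of which 1 passed.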
